A study of Caenorhabditis elegans with 18 samples.

Results

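The genes described here are 7 that mark the intestine of *Caenorhabditis elegans*. They are the transcription factor genes *elt-2* and *elt-7*, the intermediate filament genes *ifb-2* and *ifc-2*, the microvillar actin gene *act-5*, the oligopeptide transporter gene *pept-1* and the gut esterase gene *ges-1*. Their members on the array were every probe set that the platform annotation assigns to 1 of these genes and to no other, which gave 10 probe sets of the 22548 tested: 2 for *elt-2*, 3 for *ifc-2* and 1 for each of the other genes. Expression values played no part in assigning the probe sets, but the genes were chosen with earlier results of these data known.

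The worms were wild-type N2 young adults, raised for 56 h at 22°C on *Escherichia coli* OP50 after hypochlorite synchronization. They were then kept in S Basal with OP50, 6000 to a well, for 8 h with the solvent DMSO or with 100 µM of 1 of 5 small molecules known by their codes, LK32, LK34, LK35, LK38 and LK56. No pathogen was present, no allele or transgene was carried, and DMSO was common to all 6 groups. Each group had 3 biological replicates, lettered A, B and C, and total RNA of whole worms went onto 1 Affymetrix array per replicate, so the signal of an intestinal gene was measured among that of every other tissue. In such bulk RNA, a smaller share of intestinal RNA in the whole and lower expression within intestinal cells cannot be told apart.

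The worm intestine is a tube of large epithelial cells that descend from a single embryonic founder cell. ELT-2 is a GATA factor that acts from early in that lineage onward and binds upstream of a great many intestinal genes, and ELT-7 is a related GATA factor that works beside it. The apical face of each cell bears microvilli built on the actin ACT-5, and below them lies the terminal web, a dense layer of intermediate filaments to which IFB-2 and other intestinal filament proteins belong. PEPT-1 carries di- and tripeptides from the lumen into the cell, and GES-1, a carboxylesterase, has long served as a marker of intestinal differentiation.

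Values are GCRMA intensities on a linear scale, with a floor at 4.605 that was the same on every array. A probe set was counted as bright when its log2 intensity exceeded 5 on at least 3 arrays, and 9 of the 10 member probe sets were. The exception was the *ifc-2* probe set 171840_x_at, which stood at the floor on all 18 arrays, gave a difference of 0 in every comparison and is left aside below except in the counts of 10. Each compound was set against DMSO in 1 limma fit over the 18 arrays, with Benjamini-Hochberg adjustment over all 22548 probe sets, and a probe set was called at an adjusted p under 0.05. The 5 comparisons share the same 3 DMSO arrays. Between 46.3% and 49.4% of an array's values lay at the floor, and an array's mean correlation with the others of its group was 0.980 to 0.995, lowest for LK35 A and LK32 C (0.984).

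Relative to DMSO, *elt-7* rose with LK32 and fell with LK35, *ifb-2* and *pept-1* fell with LK34, LK35 and LK38, and *act-5* rose with LK38. No call was made with LK56. The called differences ranged from 2.32-fold to 4.10-fold. The called members therefore did not all move the same way: *ifb-2* and *act-5*, both of the apical part of the cell, were called in opposite directions with LK38. The *act-5* call was lost without DMSO C or without LK38 A.

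With LK32, 1 of 10 member probe sets was called, higher, where 0.940% of all probe sets were called, 0.927% higher and 0.0133% lower. With LK34, 2 were called, both lower, against 3.64% of all probe sets in either direction, 2.25% higher and 1.39% lower. With LK35, 3 were called, all lower, against 3.59% in either direction, 1.71% higher and 1.88% lower. With LK38, 3 were called, 1 higher and 2 lower, against 3.77% in either direction, 2.19% higher and 1.58% lower. The members' shares lay above these backgrounds, but dim probe sets are rarely called, and over the bright ones 1.80%, 8.77%, 8.77% and 9.12% were called with LK32, LK34, LK35 and LK38.

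With LK56, limma called 0 of 10 members against 0.789% of all probe sets in either direction, 0.767% higher and 0.0222% lower. At an unadjusted limma p under 0.05 with LK56, 4 members were higher and 0 lower. With LK32, 4 members also had an unadjusted p under 0.05, all higher. The corresponding counts were 1 higher and 3 lower with LK34, 0 higher and 5 lower with LK35, and 2 higher and 4 lower with LK38. No share of all probe sets under that unadjusted limit was taken, so these counts stand without a background. The median log2 difference of the 9 bright member probe sets was 0.82, -0.49, -1.11, -0.38 and 0.75 in the order LK32, LK34, LK35, LK38 and LK56. Over all 9033 bright probe sets the medians were 0.12, 0.06, 0.04, 0.05 and 0.23 in the same order, so that bright probe sets as a whole were shifted upward with LK32 and LK56 by less than the members were. Relative to each array's median, *elt-7* with LK32 differed by 1.08 and kept its call.

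**Figure D1:**
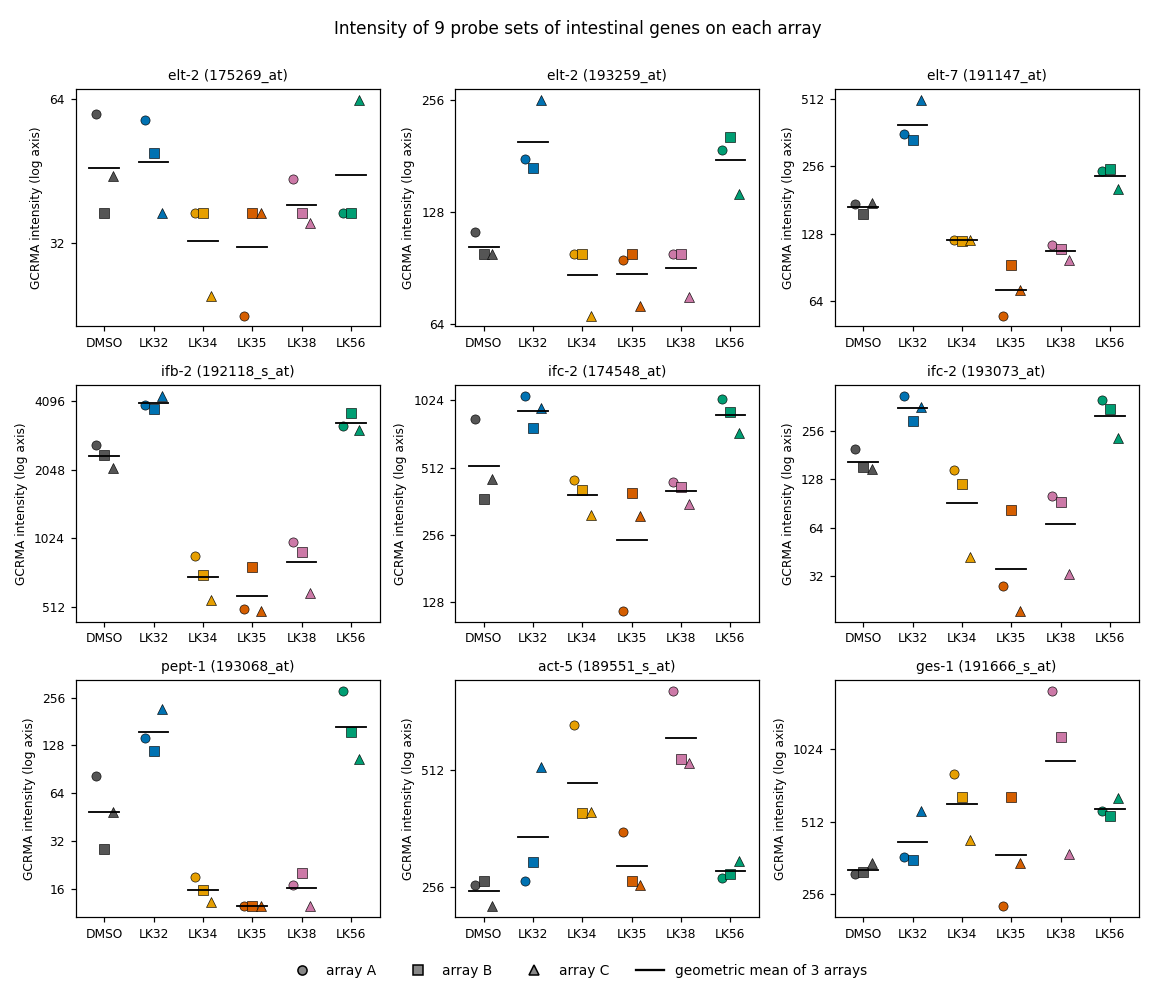
Intensity (log axis) of the 9 bright member probe sets on each of the 18 arrays, grouped by treatment; circles, squares and triangles are arrays A, B and C and each line is the geometric mean of a group. The LK32 and LK56 arrays lie above the LK34, LK35 and LK38 arrays for *elt-7*, *ifb-2* and *pept-1*, while *act-5* and *ges-1* are highest in LK38.

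Of the transcription factor genes, *elt-7* (191147_at) was the one called against DMSO. Its intensity was 173, 158 and 175 on the DMSO arrays A, B and C. It was 356, 335 and 505 with LK32 and 244, 250.0 and 203 with LK56. All 6 of these arrays stood above every DMSO array. It was 119.9, 119.1 and 119.9 with LK34, 55.2, 93.1 and 71.7 with LK35, and 114, 110.1 and 97.8 with LK38, each below every DMSO array. From high to low the groups ran LK32, LK56, DMSO, LK34, LK38 and LK35, and no neighbouring groups overlapped.

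The rise of *elt-7* with LK32 was 2.32-fold (log2 1.22 ± 0.18 SE, adjusted p = 0.00525) and the fall with LK35 2.35-fold (log2 -1.23 ± 0.18, adjusted p = 0.00162). Neither call was lost when any array of the comparison was left out. The other differences, of -0.49 with LK34 (adjusted p = 0.205), -0.65 with LK38 (adjusted p = 0.0692) and 0.46 with LK56 (adjusted p = 0.325), missed the threshold although the arrays did not overlap. With LK34 and LK38 they passed it under quantile normalization, at -0.68 and -0.89, and after centring each array on its median, at -0.62 and -0.76.

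The *elt-2* probe sets differed from each other. For 193259_at the intensity was 113.5, 98.7 and 98.7 with DMSO. It was 178, 168 and 256 with LK32 and 188, 204 and 144 with LK56, above every DMSO array. With LK34 it was 98.7, 98.7 and 67.5, with LK35 95.2, 98.7 and 71.5, and with LK38 98.7, 98.7 and 75.9. These 3 groups overlapped the DMSO arrays or tied with them: 7 of the 18 arrays carried exactly the same value, 98.7, for this probe set. Such ties come with the deposited summary values, since 1037 of the 9033 bright probe sets (11.5%) had 1 value shared exactly by 6 or more arrays, and the spread within the tied groups is correspondingly understated.

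None of the differences of 193259_at from DMSO was called. They were 0.93 ± 0.21 with LK32 (adjusted p = 0.0677) and 0.77 ± 0.21 with LK56 (adjusted p = 0.141), and between -0.25 and -0.19 with the other compounds. The LK32 difference was called, at 1.05, without LK32 B. For the other *elt-2* probe set, 175269_at, 9 of 18 arrays shared the value 37.0, all intensities lay between 22.5 and 63.6, and the differences from DMSO ran from -0.55 to 0.04 with none called. Its sign with LK32 turned to -0.39 under quantile normalization. Over the 18 arrays the log2 values of the *elt-2* probe sets correlated at only r = 0.40, a description over arrays that share groups.

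Of the filament genes, *ifb-2* (192118_s_at) was the one called against DMSO. Its intensity was 2636, 2383 and 2086 with DMSO. It was 854, 706 and 549 with LK34, 504, 767 and 492 with LK35, and 987, 896 and 592 with LK38. The highest of these 9 arrays read 987 and the lowest DMSO array 2086. It was 3928, 3779.8 and 4337 with LK32 and 3197, 3624 and 3067 with LK56, all above the DMSO arrays.

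The fall of *ifb-2* was 3.41-fold with LK34 (log2 -1.77 ± 0.22, adjusted p = 0.000467), 4.10-fold with LK35 (log2 -2.04 ± 0.22, adjusted p = 0.000154) and 2.92-fold with LK38 (log2 -1.55 ± 0.22, adjusted p = 0.00117). Leaving out any array of the comparison kept all 3 calls. The increases with LK32 (log2 0.77, adjusted p = 0.177) and LK56 (log2 0.48, adjusted p = 0.436) were not called. In order of level the groups ran LK32, LK56, DMSO, LK38, LK34 and LK35, and only the last 3 overlapped their neighbours. An _s_at probe set, as for *ifb-2*, *act-5* and *ges-1*, can bind several transcripts, so its signal may not come from the named gene alone.

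The *ifc-2* values had a wider spread. In order of level, 174548_at ran as *ifb-2* did, while 193073_at ran LK32, LK56, DMSO, LK34, LK38 and LK35. For 193073_at the intensity was 197, 153 and 148 with DMSO. With LK35 it was 27.8, 82.6 and 19.3, below every DMSO array. The difference was -2.22 ± 0.59 on the log2 scale with an adjusted p of 0.0660, and it was called, at -2.83, without LK35 B. With LK38 the intensity was 101.0, 92.8 and 32.6, and with LK34 it was 147, 120.1 and 42.1, for log2 differences of -1.29 and -0.86 that were not called. With LK32 it was 425, 295 and 359 and with LK56 398, 351 and 231, above every DMSO array, for uncalled differences of 1.11 and 0.95.

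For the *ifc-2* probe set 174548_at the DMSO arrays were themselves apart, at 848, 369 and 457. The means were 932 ± 154 (SD, n = 3) with LK32, 890.2 ± 154 with LK56, 390.1 ± 69.7 with LK34, 275 ± 143 with LK35 and 405 ± 45.9 with LK38, against 558 ± 255 with DMSO. Every compound group overlapped the DMSO arrays, and the differences, from -1.11 with LK35 to 0.82 with LK32, were not called. The log2 values of both *ifc-2* probe sets correlated at r = 0.88 over the 18 arrays, and at r = 0.53 once each group's mean was taken away.

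The next member by role is the peptide transporter gene *pept-1* (193068_at). Its intensity was 82.1, 28.4 and 48.9 with DMSO. It was 143, 118 and 217 with LK32 and 282, 155 and 105 with LK56, and each of these 6 arrays exceeded the highest DMSO array. It was 19.1, 15.7 and 13.1 with LK34, 12.4, 12.5 and 12.4 with LK35, and 16.8, 20.2 and 12.5 with LK38, each below the lowest DMSO array. The LK35 arrays were nearly identical at a low value, with an SD of 0.0504, while the DMSO arrays had an SD of 27.1.

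The fall of *pept-1* was 3.07-fold with LK34 (log2 -1.62 ± 0.40, adjusted p = 0.0464), 3.91-fold with LK35 (log2 -1.97 ± 0.40, adjusted p = 0.0164) and 3.0-fold with LK38 (log2 -1.58 ± 0.40, adjusted p = 0.0498). These calls stood close to the threshold and were lost when single arrays were left out, in several cases with little change in the difference. Without DMSO A the differences were -1.24, -1.59 and -1.20 with LK34, LK35 and LK38, and none was called. Without DMSO C they were -1.61, -1.96 and -1.58, again with none called. The LK34 call was also lost without LK34 A (-1.76), LK34 B (-1.62) or LK34 C (-1.49), the LK35 call without LK35 A (-1.96) or LK35 C (-1.96), and the LK38 call without LK38 A (-1.61), LK38 B (-1.74) or LK38 C (-1.40). An offset of 16, which damps low intensities, moved the differences to -1.04, -1.21 and -1.02 and ended all 3 calls.

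The increases of *pept-1* were of like size, 3.18-fold with LK32 (log2 1.67 ± 0.40, adjusted p = 0.0970) and 3.43-fold with LK56 (log2 1.78 ± 0.40, adjusted p = 0.0721), but missed the threshold. Both passed without DMSO A, at 2.05 and 2.16, and the LK56 difference also passed without LK56 C, at 2.11. After centring each array on its median they were 1.53 and 1.54, and both passed.

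*act-5* and *ges-1* took another course. For *act-5* (189551_s_at) the intensity was 259, 265 and 228 with DMSO and 817, 545 and 534 with LK38. With LK34 it was 668, 396 and 398, so that every LK34 and LK38 array stood above the DMSO arrays. The increase was 2.48-fold with LK38 (log2 1.31 ± 0.27, adjusted p = 0.0154) and 1.89-fold with LK34 (log2 0.92 ± 0.27, adjusted p = 0.0958), of which the former was called. The LK38 call was lost without DMSO C (1.24) or without LK38 A (1.11), the brightest array for this probe set.

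With LK35 the *act-5* intensity was 354, 265 and 258, within reach of the DMSO arrays, and the difference was 0.21 ± 0.27. With LK32 it was 265, 296 and 519.7 and with LK56 269.8, 276 and 298. The LK32 and LK56 differences were 0.46 and 0.17, not called, and the latter turned to -0.12 under quantile normalization and -0.07 after centring. *act-5* is 1 of several closely related actin genes, so cross-hybridization to the others was possible and was not tested.

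For *ges-1* (191666_s_at) the intensity was 309, 317 and 346 with DMSO. With LK38 it was 1789.6, 1154 and 376, and with LK34 it was 807, 646 and 432. All 6 arrays exceeded the DMSO arrays, with LK38 C close to them and LK38 A far above. The differences were 1.51 ± 0.50 with LK38 (adjusted p = 0.154) and 0.91 ± 0.50 with LK34 (adjusted p = 0.571). Without LK38 C the LK38 difference was 2.15 and was called. The intensities with LK32 (366, 356 and 569.9) and LK56 (565, 539 and 641) also lay above the DMSO arrays, for uncalled differences of 0.38 and 0.84, and those with LK35 (228, 649 and 347) lay on both sides of them.

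**Figure D2:**
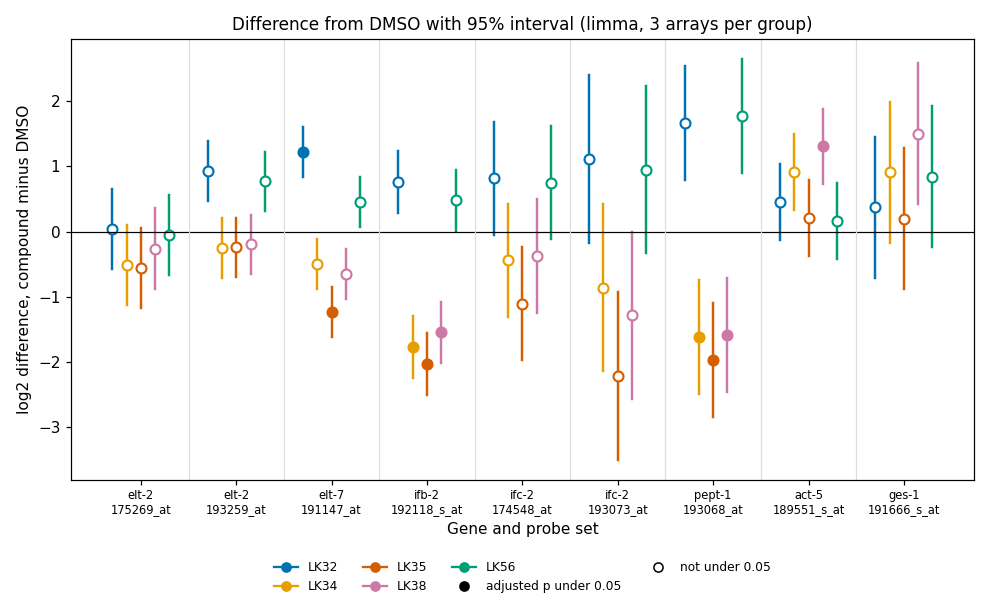
Log2 difference from DMSO of the 9 bright member probe sets for each compound, with 95% intervals from limma; filled points are called at an adjusted p under 0.05. The called points are *elt-7* with LK32 (1.22) and LK35 (-1.23), *ifb-2* and *pept-1* with LK34, LK35 and LK38 (-2.04 to -1.55), and *act-5* with LK38 (1.31).

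Counting arrays in place of the model, every array of a compound lay above all DMSO arrays for 6 of 10 members with LK32 and 7 of 10 with LK56. The shares over all probe sets were 8.73% and 14.7%, and over the bright ones 18.7% and 32.5%. Every array lay below all DMSO arrays for 4 members each with LK34, LK35 and LK38, where the shares over all probe sets were 6.39%, 6.98% and 6.48%, and over the bright ones 14.5%, 15.8% and 14.7%. With LK34 and with LK38, 2 members, *act-5* and *ges-1*, lay wholly above DMSO, against 10.2% and 8.97% of all probe sets and 23.3% and 19.9% of the bright ones. With LK35 no member did, against 8.36%, and with LK32 and LK56 no member lay wholly below, against 1.67% and 0.674%.

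All compounds were tested at the same dose and time, so they were also compared directly, in 10 pairs, with p-values adjusted over all probe sets and pairs together. Of the 100 member tests 33 were called, where 4.26% of all tests over the 10 pairs were. Dim probe sets are rarely called, and the share over the bright ones was not taken for the pairs. The shares given for the pairs, here and below, are thus low backgrounds for members that are mostly bright. Most of the member calls lay between LK32 or LK56 on one side and LK34, LK35 or LK38 on the other. There 30 of 60 member tests were called, against 3 of 40 in the remaining pairs. Over all probe sets 5.65% to 7.80% were called in each of the former pairs and 0.315% to 0.865% in each of the latter. The calls of the whole array were thus divided in the same way, and the division is not particular to the members. That division of the compounds was made with the results known and describes them only.

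By pair, 4 of 10 members were called between LK32 and LK34 (5.96% of all probe sets), 6 between LK32 and LK35 (6.83%) and 5 between LK32 and LK38 (5.65%). Likewise 4 were called between LK34 and LK56 (7.18%), 6 between LK35 and LK56 (7.80%) and 5 between LK38 and LK56 (7.14%). There was 1 between LK32 and LK56 (0.865%), 1 between LK34 and LK35 (0.315%), 1 between LK35 and LK38 (0.399%) and 0 between LK34 and LK38 (0.488%).

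In the 6 pairs across that division, *pept-1* was 9.54-fold to 13.4-fold higher with LK32 or LK56 (log2 3.25 to 3.74, adjusted p 0.000168 to 0.000462). *ifb-2* was 4.08-fold to 6.97-fold higher (log2 2.03 to 2.80). *elt-7* was 1.93-fold to 5.46-fold higher (log2 0.95 to 2.45). All 6 tests were called for each of these genes, with or without any 1 array. The *elt-2* probe set 193259_at was called in all 6 as well, at 1.96-fold to 2.27-fold (log2 0.97 to 1.18, adjusted p 0.00570 to 0.0192), although it was called against DMSO with no compound.

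The 3 *elt-2* calls against LK56 were lost when single arrays were left out. That against LK34 was lost without LK34 C (-0.84) or LK56 B (-0.92), that against LK35 without LK35 C (-0.87), LK56 A (-0.97) or LK56 B (-0.91), and that against LK38 without LK38 C (-0.84), LK56 A (-0.92) or LK56 B (-0.86), where the negative sign is that of the other compound minus LK56. For *ifc-2*, 3 of the 6 tests were called with 193073_at and 2 with 174548_at, both against LK35 in the latter. The LK32 to LK38 difference of 193073_at (2.40) lost its call without LK32 A (2.27), LK32 B (2.54), LK32 C (2.39), LK38 B (2.63) or LK38 C (1.88), and without any of 7 arrays of other groups, which leave the value as it is. Those of 174548_at were lost without LK32 A (1.81), in the comparison of LK32 with LK35, and without LK56 A (-1.74) or LK56 B (-1.84), in that of LK35 with LK56.

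*act-5* was called once across the division and in the opposite direction: it was higher with LK38 than with LK56 by 1.14 (adjusted p = 0.0301). That call was lost without LK38 A (0.94), LK38 B (1.23), LK56 A (1.11), LK56 B (1.13) or LK56 C (1.18). *ges-1* and the *elt-2* probe set 175269_at were called in none of the 10 pairs.

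**Figure D3:**
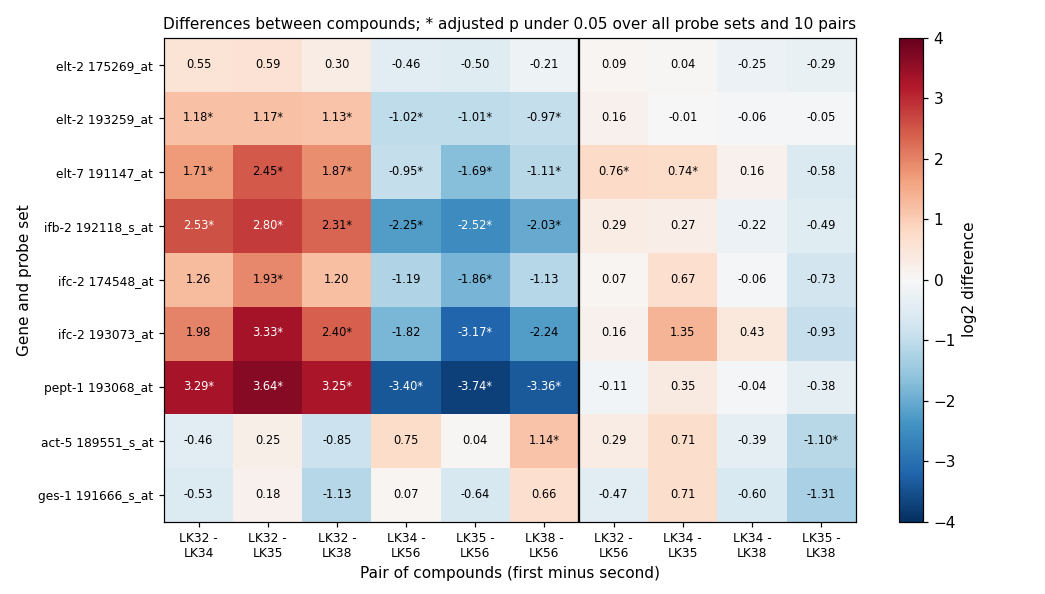
Log2 difference between compounds for the 9 bright member probe sets in the 10 pairs, with the sign of the first-named compound minus the other; an asterisk marks an adjusted p under 0.05 over all probe sets and pairs. Calls crowd into the 6 pairs that set LK32 or LK56 against LK34, LK35 or LK38 (left of the line), with 30 of the 33 calls. The calls over all probe sets do so too, at 5.65% to 7.80% in each of these pairs and 0.315% to 0.865% in each of the others.

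Within the groups of compounds that shared a direction, differences were few. LK32 and LK56 differed for *elt-7*, which was 1.69-fold higher with LK32 (log2 0.76 ± 0.18, adjusted p = 0.0294), and the call was lost without LK32 C (0.58), LK56 A (0.80), LK56 B (0.82) or LK56 C (0.67). *pept-1* differed between LK32 and LK56 by -0.11, with a 95% interval of -0.98 to 0.76, and *ifb-2* by 0.29 (-0.19 to 0.76). Intervals of this width leave room for a difference of more than 1.5-fold in either gene.

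LK34 and LK35 differed for *elt-7*, which was 1.67-fold higher with LK34 (log2 0.74 ± 0.18, adjusted p = 0.0342). The call was lost without LK35 A (0.55), without LK34 A, LK34 B, LK34 C or LK35 C (each 0.74), and without any of 4 arrays of other groups. Between LK34 and LK38 limma called 0 members, and 0 had an unadjusted p under 0.05. Their intervals were -0.69 to 0.25 for *ifb-2*, -0.23 to 0.55 for *elt-7* and -0.91 to 0.84 for *pept-1*.

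LK35 and LK38 differed for *act-5*, which was 2.14-fold lower with LK35 (log2 -1.10 ± 0.27, 95% interval -1.68 to -0.52, adjusted p = 0.0370). The call was lost without LK35 B (-1.04), LK35 C (-1.01), LK38 A (-0.90) or LK38 B (-1.19), and without any of 7 arrays of other groups. Every other bright member probe set was also lower with LK35 than with LK38, but none of those differences was called. They were -0.58 for *elt-7* (-0.97 to -0.19, adjusted p = 0.108), -0.49 for *ifb-2* (-0.96 to -0.01) and -1.31 for *ges-1* (-2.39 to -0.22, adjusted p = 0.241). For *pept-1* the difference was -0.38 (-1.26 to 0.49), and for the *elt-2* probe set 193259_at -0.05 (-0.50 to 0.41).

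The members varied together among replicates to different degrees. Over the 18 arrays, log2 *ifb-2* correlated with *pept-1* at r = 0.94, with *elt-7* at 0.92 and with the *ifc-2* probe set 193073_at at 0.92. With group means removed, the same correlations were 0.39, 0.57 and 0.92, so *ifb-2* and 193073_at also rose and fell together from replicate to replicate. For the other bright *ifc-2* probe set, 174548_at, the correlation with *ifb-2* was 0.85 over the arrays and 0.55 with group means removed. *ges-1* correlated with *ifb-2* at -0.09 across all arrays but at 0.85 within groups, and *act-5* with *ifb-2* at -0.38 and 0.43. The arrays share their groups and the within-group values share each array's normalization, so these coefficients describe the arrays and carry no test.

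Whole arrays also stood off from their group for the members jointly. LK38 C lay below its group mean for 9 of 9 member probe sets, by 0.45 on average on the log2 scale, and LK34 C for 8 of 9, by 0.39. LK38 A and LK34 A lay above for 9 of 9, each by 0.31, and LK35 B for 8 of 9, by 0.42. DMSO A, which enters every comparison with DMSO, lay above for 8 of 9, by 0.27. LK38 C and LK34 C each had 49.0% of values at the floor, and LK35 C, with the highest share at 49.4%, lay below its group mean by 0.12. The part of this array-wide variation in the differences between groups was not tested.

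**Figure D4:**
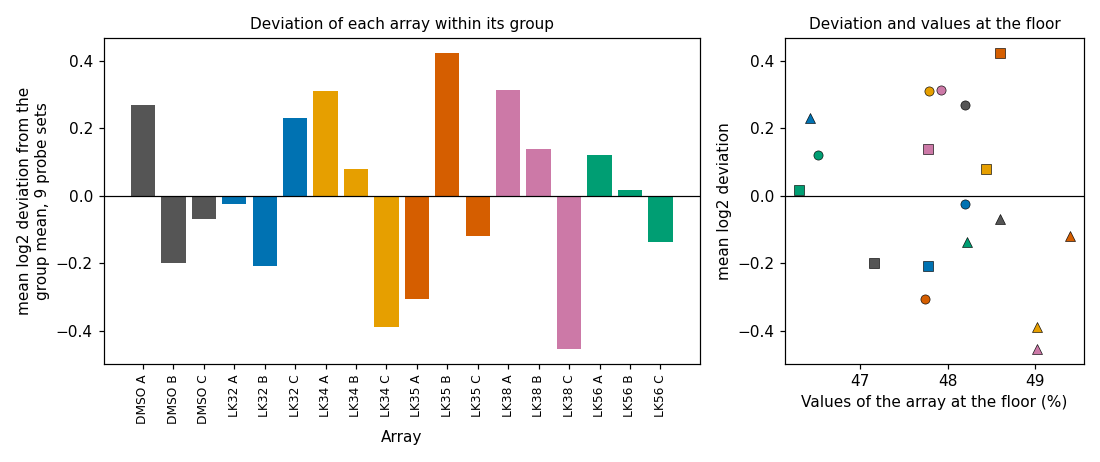
Left, deviation of each of the 18 arrays from its group mean (log2, bars are the mean over the 9 bright member probe sets, coloured by treatment). Right, the same deviation against the percentage of the array's values at the floor, with circles, squares and triangles for arrays A, B and C. LK38 C (-0.45) and LK34 C (-0.39) lie lowest, and LK35 B (0.42) highest.

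The genes whose pattern was most like that of a member, by Pearson correlation of log2 values over the 18 arrays among bright probe sets of 1 gene, were led for *ifb-2* by *hlh-11*, *pgrn-1* and *cpr-5*, each at r = 0.99. They encode a basic helix-loop-helix factor, a progranulin and a cathepsin B-like protease. For *pept-1* they were R05G6.10 (0.98), *nssp-64* (0.97) and C26E1.2 (0.97). For *elt-7* they were *skr-3*, a Skp1-related gene (0.98), the AMP deaminase gene *ampd-1* (0.97) and *aagr-2* (0.97). For the *elt-2* probe set 193259_at they were C04E12.2 (0.97), T12D8.9 (0.97) and the neuropeptide-like gene *nlp-11* (0.96).

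For the *elt-2* probe set 175269_at the closest were F57B1.5 (0.89), *nlp-36* (0.85) and *srap-1* (0.83). For *ifc-2* they were *slc-36.2* (0.96), the trehalase gene *tre-3* (0.96) and F39G3.5 (0.95) with 174548_at, and the calcineurin B gene *cnb-1* (0.97), *clec-54* (0.96) and F41B4.1 (0.96) with 193073_at. For *act-5* they were both probe sets of T19B10.2 (0.86 and 0.82) and the epoxide hydrolase gene *ceeh-1* (0.81), and for *ges-1* they were *kola-3* (0.95), F40A3.2 (0.94) and T23B3.2 (0.92). No other member was among the 3 most similar genes of any member.

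Other genes of the same cell structures gave few calls. Of 8 genes of the brush border and cell junctions, among them the ezrin-radixin-moesin gene *erm-1* and the actin regulator gene *eps-8*, all 8 were bright and limma called 0 with any compound, with medians of 0.11 to 0.44. Without a call, *hmr-1* differed by 0.93, 0.86 and 0.93 with LK34, LK35 and LK38 (limma adjusted p = 0.0596, 0.0865 and 0.0603). *dlg-1* differed by 1.59, 0.60 and 1.61 with the same compounds. The negative differences with these compounds were those of *ajm-1*, at -0.12, -0.31 and -0.16, and of *eps-8* with LK35, at -0.24. Of 5 further terminal web filament and scaffold genes 2 were bright, *ifd-2* and *ifo-1*, and 0 were called. *ifd-2* differed by 1.73 with LK32 (adjusted p = 0.310), and *ifo-1*, which encodes the organizer of the intestinal filaments, by 0.75 with LK32 and -0.76 with LK35. Of the endoderm GATA factor genes, which act in the embryo, *end-1*, *end-3* and *med-1* were measured, none was bright and 0 were called.

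Of 12 genes of lumen transport and digestion 11 were measured and 7 were bright. The metallothionein gene *mtl-2*, read by an _x_at probe set that can cross-hybridize, rose with LK34, LK35 and LK38, from a mean of 4314 ± 314 (SD, n = 3) with DMSO to 10184 ± 1762, 15396 ± 391 and 15962 ± 2337. The log2 differences were 1.23, 1.84 and 1.88 (SE 0.14, adjusted p = 0.000196, 8.76e-06 and 5.38e-06). The P-glycoprotein gene *pgp-3* rose with LK38 by 1.72 (adjusted p = 0.0165). The aspartyl protease genes *asp-1* and *asp-3* fell with LK35, by 0.66 and 0.86 on the log2 scale (adjusted p = 0.0227 and 0.0132). Intestinal genes thus moved both ways with the compounds that lowered *ifb-2* and *pept-1*. With LK34 and LK35, *mtl-2* was the only gene of this list called higher. Without a call, *vha-6* differed by -0.50, -0.69 and -0.37 with LK34, LK35 and LK38, and *sid-2* by 0.70, -0.12 and 0.44. *asp-3* differed by -0.60 with LK34 and -0.55 with LK38, and *pgp-3* by 1.08 with LK34 and 0.68 with LK35, also uncalled.

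Markers of other tissues were read in the same way. Of 4 body wall muscle genes 3 were bright, *unc-22* was at or near the floor and 0 were called, but their median difference had the members' signs, at 0.33, -0.53, -0.81, -0.33 and 0.33 in the order LK32, LK34, LK35, LK38 and LK56. The mean log2 level of the list was 8.81 to 8.90 on the DMSO arrays, 9.11 to 9.33 with LK32 and 9.11 to 9.23 with LK56. It was 8.11 to 8.62 with LK34, 7.92 to 8.53 with LK35 and 7.98 to 8.99 with LK38. The LK38 range thus overlapped that of DMSO, and with LK32 *unc-15* differed by -0.10. The part of the muscle values in the members' result was not tested.

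The 4 pharyngeal genes were near the floor, none was bright, and *myo-2* and *tnc-2* stood at the floor in DMSO and LK34, so the pharynx could not be read. Of 6 epidermal genes 5 were bright and 0 were called. Of 5 neuronal genes the synaptobrevin gene *snb-1* rose with LK34, LK35 and LK38, by 0.44, 0.35 and 0.39. Other neuronal genes differed in both directions without a call. With the same compounds *egl-3* differed by -0.78, -1.30 and -0.73 and *rab-3* by -0.20, -0.24 and -0.13, while *unc-119* differed by 0.35, 0.13 and 0.17. *unc-104* was near the floor, and the medians of the list with these compounds lay between -0.0041 and 0. Of 4 germ line genes the helicase gene *glh-1* rose with LK34 and LK35, by 0.65 and 0.70 (adjusted p = 0.0490 and 0.0332). The median of the germ line list was -0.26, 0.22, 0.34, 0.19 and -0.28 in the order LK32, LK34, LK35, LK38 and LK56. These signs were opposite to those of the members' median with every compound. The part of the germ line values in the members' result was not tested.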

How the data were processed

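The authors summarized the arrays with GCRMA (version and settings not given in the sources used here), and the deposited values are linear intensities from 4.605 to 58200.7. GCRMA normalizes arrays to each other, which hides any shift shared by every transcript. Of 22625 probe sets, 77 controls were left out. Probe sets were named from the platform annotation. The fit used limma 3.58.1 under R 4.3.3 on log2 intensities (6 group means, 12 residual and 0.332 prior degrees of freedom), and the script was tested on simulated data. Means and SD are of linear intensities, while folds are ratios of geometric means, and limma gave the SE and 95% intervals. Each listed gene was represented by its brightest probe set. The named genes are all members, the 3 most similar genes of each and the called genes of the lists; others named within a list were chosen after their values were seen. The genes and lists were chosen with earlier results of these data known. Alternatives were quantile normalization, median centring, an offset of 16, bright probe sets alone, a 2-fold limit, array weights, a replicate block, the arrays of a comparison alone and leaving out each array. Leaving out LK32 C and LK35 A together was added after seeing the data. The number of arrays limits the precision.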

Additional observations from a re-analysis of the deposited data

How the results depend on the processing

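Over the alternatives, 674 single-gene values kept their side of the threshold, 30 lost a call, 41 gained one and 0 called values changed sign. Of the member counts, those that moved from the main fit by the larger factors are listed. A count left out was unchanged or moved less and need not be 0. With array weights the counts of called members were 4 higher with LK32, 2 higher and 4 lower with LK34, 5 lower with LK35, 2 higher with LK38, 3 higher with LK56 and 55 over the pairs of compounds. The weights had not fully converged. With bright probe sets alone, which adjusts over fewer tests, they were 3 higher with LK32, 1 higher with LK34, 2 higher with LK38 and 1 higher with LK56. After median centring they were 2 higher with LK32, 5 lower with LK35 and 1 higher with LK56. With an offset of 16 they were 1 lower with LK34 and 1 lower with LK38. With the arrays of a comparison alone they were 0 higher with LK32, 0 lower with LK35, and 0 higher and 0 lower with LK38; the *ifb-2* calls then had adjusted p = 0.0517 with LK35 and 0.101 with LK38. Without LK32 C and LK35 A, 1 was higher with LK34. Leaving out 1 array gave 1 to 2 higher with LK32, 1 to 2 lower with LK34, 2 to 4 lower with LK35, 0 to 2 higher and 1 to 2 lower with LK38, 0 to 1 higher with LK56 and 24 to 35 over the pairs. The share of all probe sets called was not taken under any alternative, the replicate block included. These member counts therefore have no background and do not show a change particular to the members. The causes of these changes were not tested beyond what each alternative itself changes.

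Over all groups together, the replicate letters did not pair the arrays consistently. Of 45 same-letter pairs of arrays, 15 had deviations correlated above 0.1 (range -0.46 to 0.79), and 7 of 18 arrays correlated best with their own letter. A pairing among some of the groups was not tested. With the replicate block, 1 member was called lower with LK38, 4 were called lower with LK35 and 32 over the pairs. With 3 arrays a group, values near the threshold, *pept-1* above all, cannot be placed firmly on either side of it, and intensities near the floor understate differences.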
